A study of Mus musculus with 2 samples.

Results

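The innate receptors by which cells recognise bacterial lipopolysaccharide (LPS), together with a set of the Toll-like receptors, were examined in colonies/organoids grown in 3D from mouse mammary basal cells. The set held 10 genes, *Lbp*, *Cd14*, *Ly96*, *Myd88* and *Tlr1* to *Tlr6*, of the 49492 genes in the count table. They were picked by name, with the ratio between TNF-α treated and control cells already known, so that ratio is given below as a description and carries no test. The cells were wild-type primary epithelial cells, sorted by FACS as basal cells from the mammary glands of adult female mice. Control cells received no treatment, and treated cells were grown with recombinant mouse TNF-α at 10 ng/mL, both for 10 days. Each condition had 1 library, and the number of mice behind it was not given in the sources used here. The difference between the libraries therefore has no replicate check, and the treatment and the culture cannot be told apart.

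LPS, the glycolipid of the outer membrane of Gram-negative bacteria, is handed from the secreted carrier LBP to the surface protein CD14 and on to the complex of TLR4 with MD-2, the small protein encoded by *Ly96*. Other Toll-like receptors recognise other microbial products at the cell surface or in endosomes. Most of them signal through the adaptor MyD88 to NF-κB, whereas TLR3 uses the adaptor TRIF. Mammary epithelium meets bacteria during mastitis, and epithelial cells as well as macrophages carry such receptors.

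The control library held 44462275 counts and the TNF-α library 53487087. Counts were scaled to library size (CPM) with edgeR's TMM method. Levels are also divided by the summed exon length in kb (RPKM) where genes are compared with each other, and ratios are given as the log2 of TNF-α over control with a prior count of 2. A gene entered the comparison with at least 10 counts over both libraries, which 20771 genes did, and was called higher or lower when the ratio passed 2-fold. Intervals are 95% intervals for counting error only, as amplified reads are not independent molecules and cultures were not repeated. Keratins of both mammary lineages were abundant. The basal keratin gene *Krt14* had 229766 counts in the control library and 259922 with TNF-α, or 5155 and 4871 CPM. The luminal keratin gene *Krt8* had 54056 and 60420 counts, or 1213 and 1132 CPM. After scaling, *Krt14* and *Krt8* were both slightly lower with TNF-α. The other basal keratin genes listed, *Krt5* and *Krt17*, were slightly higher, at log2 ratios of 0.16 and 0.31. RNA amounts in a mixed culture cannot tell fewer cells of a type from less RNA per cell. Of 19 leukocyte and macrophage markers, 2 (*Cd3e* and *Ly6g*) were at 0 in both libraries, and the macrophage marker *Adgre1* had 0 and 2 counts. Others were counted, and 12 of the 19 had at least 10 counts over both libraries. Among these were *Lyz2* (114 in the control and 109 with TNF-α), *Csf1r* (92 and 81) and *Cd68* (83 and 75). After scaling, their log2 ratios were -0.32, -0.43 and -0.40. Of the 12 markers, 4 had a ratio above 0, as had 50.6% of all genes compared, and *Spi1* was the highest at 0.30.

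Of the 10 genes, 9 entered the comparison and *Tlr1* had no counts. The TNF-α library was more than 2-fold higher for 4 of the 9 (*Lbp*, *Tlr2*, *Ly96* and *Cd14*) and more than 2-fold lower for 0. Among all genes compared, 8.56% were more than 2-fold higher and 6.62% more than 2-fold lower. Among the 10376 genes whose summed counts lay in the range of these 9 (42 to 2188), the shares were 8.28% and 6.29%. Nothing is read from the difference, because the genes were picked on this contrast. The median log2 ratio of the 9 genes was 0.96, against 0.0038 for all genes compared. With only genes of at least 1 CPM in a library, 7 of them were left, 3 were more than 2-fold higher, and the median was 0.47.

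**Figure D1:**
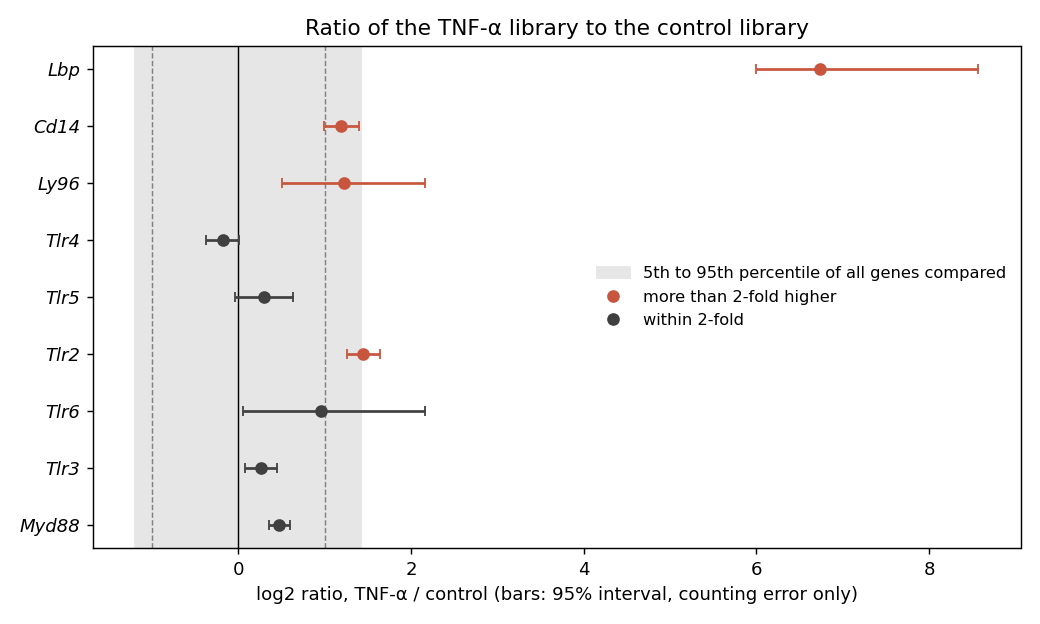
Log2 ratio of the TNF-α library to the control library for the 9 genes with at least 10 counts. Bars are 95% intervals for counting error, the grey band spans the 5th to 95th percentile of all genes compared (-1.20 to 1.42), and dashed lines mark 2-fold. *Lbp* lies far to the right of the band at 6.74, and *Tlr4* is the one gene to the left of 0.

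*Lbp* encodes the LPS binding protein, known best as an acute phase protein of the liver. It lies on chromosome 2 of GRCm38 (158306493 to 158332852, plus strand). It had 6 counts in the control and 1000 with TNF-α, which is 0.0279 and 3.88 RPKM. It was barely counted in the control and well counted with TNF-α. Its log2 ratio was 6.74 (95% interval 5.99 to 8.57), the highest of the 20771 genes. Because the control count was so small, the ratio depended on the prior count, and it ranged from 6.31 to 7.02 over the alternatives. In rank by RPKM among all genes compared, *Lbp* stood at percentile 2.50 in the control and at percentile 58.0 with TNF-α. The nearest compared genes on either side, *D630003M21Rik* and *Snhg17*, had log2 ratios of 0.70 and -0.17. *Bpi*, which encodes a related LPS-binding protein, had 0 counts in the control and 4 with TNF-α.

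*Cd14*, on chromosome 18, encodes the membrane-anchored protein that takes LPS from LBP, and is known in the mouse mammary gland as a gene of luminal progenitor cells as well as of monocytes. It had 276 counts in the control library and 756 with TNF-α, or 3.94 and 9.01 RPKM. The log2 ratio was 1.19 (95% interval 0.99 to 1.40). *Cd14* was higher in the library where the luminal markers were lower. The 9 luminal markers were *Krt8*, *Krt18*, *Krt19*, *Elf5*, *Kit*, *Esr1*, *Pgr*, *Gata3* and *Prlr*. All 9 had a log2 ratio below 0, from -1.54 for *Pgr* to -0.10 for *Krt8*, where 50.6% of all genes compared lay above 0. Of these markers, 3 were more than 2-fold lower and 0 higher, beside 6.62% and 8.56% of all genes compared. The part of the luminal markers in the *Cd14* value was not tested. The 19 leukocyte and macrophage markers summed to 20.0 CPM in the control and 19.3 CPM with TNF-α, a log2 ratio of -0.05 (95% interval -0.18 to 0.08). *Lcp1* (named after its values were seen) gave 8.57 CPM of the sum in the control and 10.0 CPM with TNF-α, and the other 18 markers summed to 11.4 and 9.28 CPM, a log2 ratio of -0.30 (95% interval -0.48 to -0.12). Of all 19 markers, *Lcp1* included, the 12 with at least 10 counts had a median ratio of -0.34, from -0.59 for *Cx3cr1* to 0.30 for *Spi1*. Among these 12, 0 passed 2-fold, where 8.56% of all genes compared were higher and 6.62% lower. Their part in the *Cd14* value was not tested either.

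*Ly96* encodes MD-2, the protein that holds the lipid part of LPS in the pocket of the TLR4 complex. It lies on chromosome 1 (16688051 to 16709611, plus strand). It had 18 counts in the control library and 53 with TNF-α, or 0.396 and 0.973 RPKM. The log2 ratio was 1.22 (95% interval 0.50 to 2.16), so the counting error alone reached well under 2-fold.

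*Tlr4*, the signalling receptor for LPS, lies on chromosome 4 (66827584 to 66930284, plus strand). It had 449 counts in the control library and 473 with TNF-α, or 1.81 and 1.60 RPKM. Once the larger TNF-α library is taken into account, the log2 ratio was -0.18 (95% interval -0.37 to 0.0049). *Tlr4* was the one gene of the 9 with a ratio below 0, and its interval reached 0.

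The genes for the parts of the LPS receptor were also set beside each other within each library. Per kb, *Ly96* transcripts were 0.218 times those of *Tlr4* in the control library (95% interval 0.128 to 0.349) and 0.610 times with TNF-α (0.450 to 0.811). For *Cd14* the ratio to *Tlr4* was 2.17 in the control (1.86 to 2.53) and 5.65 with TNF-α (5.03 to 6.35). *Lbp* stood at 0.00707 times the level of *Cd14* in the control (0.00257 to 0.0156) and at 0.430 times with TNF-α (0.391 to 0.474). These ratios do not depend on the scaling between libraries, but they rest on the same counts as the log2 ratios above and carry no test.

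**Figure D2:**
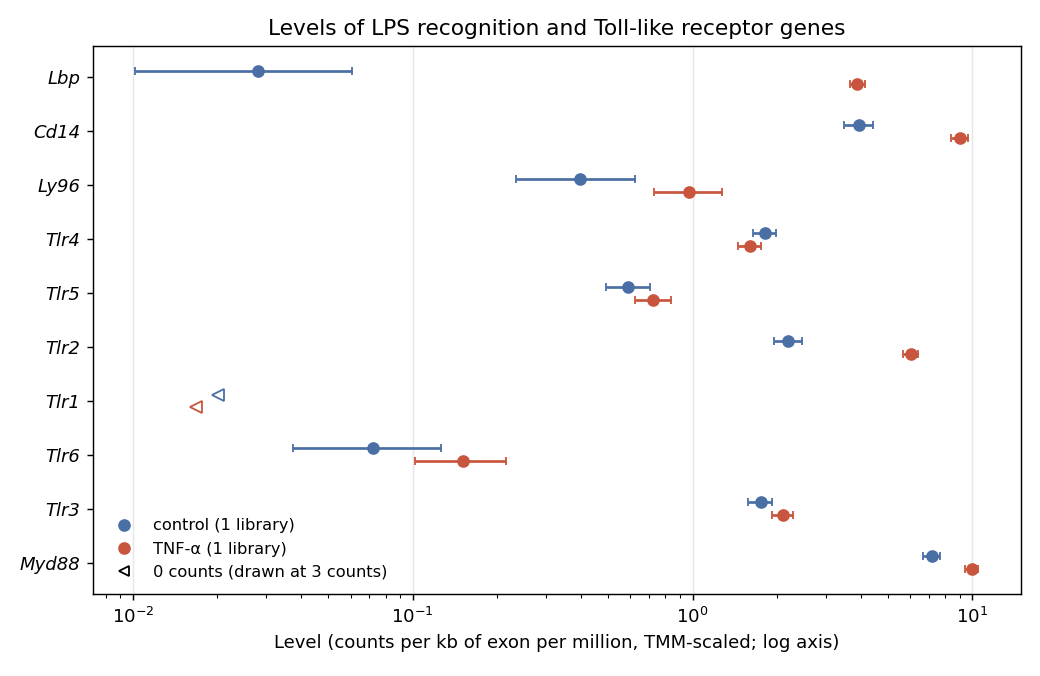
Level of each gene in the control and TNF-α libraries, in RPKM on a log axis, with 95% Poisson intervals for counting error. *Lbp* moves from 0.0279 to 3.88 RPKM, *Myd88* is highest in both libraries, and the open triangles for *Tlr1* mark 3 counts, where a count of 0 is drawn.

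*Tlr2* encodes the receptor that recognises bacterial lipoproteins, as a pair with TLR1 or TLR6. It lies on chromosome 3 (83836272 to 83841767, minus strand). It had 296 counts in the control library and 967 with TNF-α, or 2.20 and 6.01 RPKM. Its log2 ratio of 1.44 (95% interval 1.26 to 1.64) was the highest among the Toll-like receptors, and its whole interval lay above 2-fold. The interval of *Tlr6*, from few reads, was 0.05 to 2.16 and held that of *Tlr2*, so the counts do not settle the order of these genes. The 91 bases just before the gene as counted (RefSeq, GRCm38.p6, minus strand, chr3:83841768-83841858) are shown because they hold the NF-κB motif, and capitals mark the match, which lies between 14 and 4 bases before that start.

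Tlr2 upstream: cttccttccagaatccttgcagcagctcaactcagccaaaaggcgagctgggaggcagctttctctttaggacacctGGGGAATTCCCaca

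The match in *Tlr2* is counted as 2 overlapping ones, since the run reads as the motif in 2 registers. Motifs were searched on both strands in the 250 bases before each RefSeq start, at hand for 6 of the 10 genes, *Myd88*, *Tlr1*, *Tlr2*, *Tlr3*, *Tlr5* and *Tlr6*, of which *Tlr1* and *Tlr6* have 2 windows each. Some of these windows lie wholly inside the gene as counted, by 450 bases for *Tlr3*, 1143 for *Myd88*, and 614 and 681 for 1 window each of *Tlr1* and *Tlr6*. The NF-κB motif occurred in windows of *Tlr2* and *Tlr3*, that is in 2 of the 6 genes, and in 5.55% of the 12634 compared genes with a window. A match of letters describes the sequence and is not a measured binding site.

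*Tlr6* and *Tlr1*, whose products pair with TLR2, lie side by side on chromosome 5, *Tlr1* from 64924679 to 64933563 and *Tlr6* from 64952031 to 64960097, both on the minus strand. *Tlr6* had 12 counts in the control library and 30 with TNF-α, or 0.0722 and 0.151 RPKM. Its log2 ratio of 0.96 (95% interval 0.05 to 2.16) rests on few reads, and when the counts were divided by 2, as for read pairs counted at both ends, the interval ran from -0.39 to 2.72. *Tlr1* had 0 counts in both libraries, which allows up to 3 counts by the one-sided limit, or 0.0673 CPM in the control and 0.0562 CPM with TNF-α. The Poisson interval used for the other levels reaches 3.69 counts, or 0.0828 and 0.0691 CPM. *Tlr2* was therefore far above both partners. Per kb it stood at 30.5 times *Tlr6* in the control (95% interval 17.2 to 59.7) and at 39.9 times with TNF-α (27.7 to 59.4), and these intervals overlapped.

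The counts of *Tlr1* and *Tlr6* are uncertain because the genes share sequence. Their coding sequences (GENCODE M21) were identical at 72.7% of aligned positions, and the longest run without a difference was 229 bases. The other pairs among *Tlr1* to *Tlr6* were between 43.5% and 48.8% identical, with no common run over 13 bases. Of the distinct 50-base words in the transcripts of *Tlr6*, 12.3% also occur in another gene, and for *Tlr1* the share was 15.4%. Whether reads from such stretches were counted for either gene was not given in the sources used here. A stretch of 120 bases from the shared run, the same in both genes (*Tlr1* coding bases 1468 to 1587, *Tlr6* coding bases 1507 to 1626), is shown first. The gap-free stretch of equal length with the most differences follows, with the 57 bases that differ in capitals (*Tlr1* coding bases 905 to 1024, *Tlr6* coding bases 944 to 1063).

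Tlr1 and Tlr6, shared stretch: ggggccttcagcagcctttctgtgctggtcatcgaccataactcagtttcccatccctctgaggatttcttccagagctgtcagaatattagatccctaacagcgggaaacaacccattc
Tlr1, divergent stretch: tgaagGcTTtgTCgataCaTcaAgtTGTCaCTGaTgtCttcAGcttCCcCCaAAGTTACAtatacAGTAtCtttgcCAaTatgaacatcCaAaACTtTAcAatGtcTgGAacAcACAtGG
Tlr6, divergent stretch: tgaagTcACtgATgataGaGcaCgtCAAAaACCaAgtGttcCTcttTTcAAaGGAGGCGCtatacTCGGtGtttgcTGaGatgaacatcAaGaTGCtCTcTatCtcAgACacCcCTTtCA

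*Tlr3*, the endosomal receptor for double-stranded RNA, lies on chromosome 8 (45395665 to 45411080, minus strand). It had 406 counts in the control library and 584 with TNF-α, or 1.75 and 2.10 RPKM, and its log2 ratio was 0.26 (95% interval 0.08 to 0.45). When the counts were divided by 2, the interval ran from 0.0009 to 0.53 and so barely cleared 0. *Gm45542*, on the opposite strand, shares 381 of the 5207 exon bases of *Tlr3* and had 10 and 35 counts. Whether counting used the strand was not given in the sources used here.

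*Tlr5*, the receptor for bacterial flagellin, lies on chromosome 1 (182954788 to 182976044, plus strand). It had 126 counts in the control library and 185 with TNF-α, or 0.590 and 0.724 RPKM. The log2 ratio was 0.29 (95% interval -0.04 to 0.63), and this interval reached both sides of 0.

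*Myd88*, the adaptor shared by most Toll-like receptors and by the receptors of the IL-1 family, lies on chromosome 9 (119335934 to 119341411, minus strand). It had 821 counts in the control library and 1367 with TNF-α, or 7.15 and 9.94 RPKM, the highest level of the 10 genes in both libraries. The log2 ratio was 0.47 (95% interval 0.35 to 0.60), so the interval lay above 0 and under 2-fold. *Acaa1a*, on the opposite strand, shares 290 of the 2576 exon bases of *Myd88* and had 2130 counts in the control and 2812 with TNF-α. Without strand, reads in the shared part cannot be told apart.

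The other motifs were searched in the same windows, and shares are again of the 12634 compared genes. The ISRE letters (GAAA, any 2 bases, GAAA), known as the element bound by interferon-activated factors, occurred in windows of *Myd88* and *Tlr6* and in 3.21% of genes. The GAS letters TTCNNNGAA, known from STAT factors, occurred in windows of *Myd88* and *Tlr1* and in 7.22% of genes, and in *Myd88* they overlap the ISRE letters. The C/EBP letters TTGCNNAA were in windows of *Tlr3* and *Tlr6* and in 9.32% of genes. The AP-1 letters TGANTCA were in 0 of the 6 genes and in 6.10% of the compared genes, and the *Tlr5* window held none of the 5 motifs.

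In order of RPKM, the control library read *Myd88*, *Cd14*, *Tlr2*, *Tlr4*, *Tlr3*, *Tlr5*, *Ly96*, *Tlr6*, *Lbp* and *Tlr1*. The neighbours *Tlr2* and *Tlr4*, *Tlr4* and *Tlr3*, *Tlr5* and *Ly96*, *Tlr6* and *Lbp*, and *Lbp* and *Tlr1* had overlapping counting intervals there. With TNF-α the order was *Myd88*, *Cd14*, *Tlr2*, *Lbp*, *Tlr3*, *Tlr4*, *Ly96*, *Tlr5*, *Tlr6* and *Tlr1*, and the intervals of *Myd88* and *Cd14* and of *Ly96* and *Tlr5* overlapped. *Lbp* moved from the ninth place to the fourth. The median of all genes compared was 2.56 RPKM in the control and 2.59 RPKM with TNF-α. *Myd88* and *Cd14* were above this median in both libraries, and *Tlr2* and *Lbp* were above it with TNF-α only.

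The level summed over *Tlr1* to *Tlr6* was 6.43 RPKM in the control library and 10.6 RPKM with TNF-α. *Tlr2* made up 34.3% of this sum in the control and 56.8% with TNF-α. *Tlr4* made up 28.2% and 15.1%, *Tlr3* 27.2% and 19.9%, and *Tlr5* 9.18% and 6.84%. Per kb, *Tlr2* was 1.22 times *Tlr4* in the control (95% interval 1.05 to 1.41) and 3.77 times with TNF-α (3.37 to 4.22). *Tlr3* was 0.965 times *Tlr4* in the control (0.842 to 1.11) and 1.32 times with TNF-α (1.16 to 1.49).

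**Figure D3:**
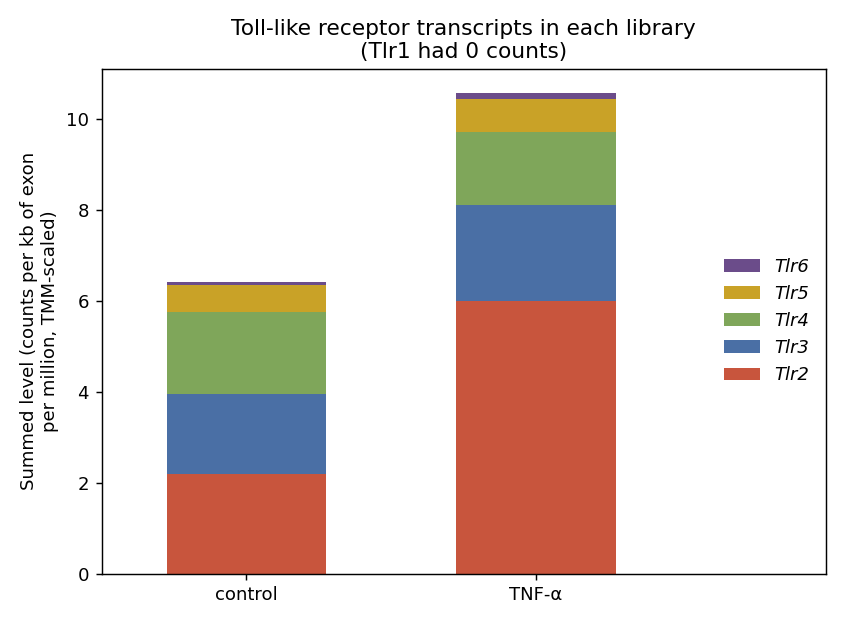
Level in RPKM of *Tlr2* to *Tlr6*, stacked, in the control and TNF-α libraries (1 library each, no error bars). The sum is 6.43 in the control and 10.6 with TNF-α, the *Tlr2* part is 2.20 and 6.01, and the *Tlr4* part is 1.81 and 1.60.

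The wider pathway was described with gene lists. Among 17 genes of other Toll-like receptors, their accessory proteins and LPS-handling proteins, 9 entered the comparison. Of these, 0 passed 2-fold in either direction, where 8.56% of all genes compared were higher and 6.62% lower. Their median log2 ratio was -0.07, against 0.0038 for all genes compared. Of the other 6 receptor genes, *Tlr13* alone reached 10 counts (10 in the control and 8 with TNF-α, named after its values were seen). The highest of the list was *Unc93b1*, which carries endosomal receptors from the endoplasmic reticulum, with 672 and 1234 counts and a log2 ratio of 0.62. The lowest was *Cd36*, a scavenger receptor that assists TLR2, at -0.75 with 125 and 88 counts. Among 22 genes of adaptors, kinases and ubiquitin ligases downstream of the receptors, the median was 0.10. Beside 8.56% and 6.62% of all genes compared, 1 was more than 2-fold higher and 0 were lower. That one was *Ticam2*, the adaptor that links TLR4 to TRIF, with 2 counts in the control and 14 with TNF-α, a log2 ratio of 1.82 (95% interval 0.43 to 5.73) from few reads. The lowest was *Peli2* at -0.26. The other 21 genes of this list lay within 2-fold, as did *Myd88*. Among the 21, *Ikbke* at 0.99 and *Traf3* at 0.96 came just under that threshold (both named after their values were seen). *Ikbke* was counted 970 times in the control and 2303 times with TNF-α, and *Traf3* 1621 and 3783 times. Their 95% limits were 0.88 and 1.10 for *Ikbke*, and 0.88 and 1.05 for *Traf3*, so both ranges held 2-fold.

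Among 11 negative regulators, 2 were more than 2-fold higher and 1 lower (8.56% and 6.62% of all genes compared were higher and lower), with a median of -0.13. *Tnfaip3*, which encodes the ubiquitin-editing enzyme A20, had 743 counts in the control and 4875 with TNF-α, a log2 ratio of 2.45. *Irak3*, which encodes the inhibitory kinase-like protein IRAK-M, went from 340 to 1054 counts, at a log2 ratio of 1.37 (95% interval 1.19 to 1.55), and 192 of its 3676 exon bases are shared with *Tmbim4* on the opposite strand. The lowest was *Sarm1*, at -1.22 with 20 and 9 counts.

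Most receptors of the IL-1 family carry the same intracellular TIR domain as Toll-like receptors and signal through MyD88, and the decoy receptor lacks that domain. Of the 7 genes, 4 were more than 2-fold higher and 1 lower, where the shares of all genes compared were 8.56% and 6.62%, with a median of 1.47. *Il1rl1*, the IL-33 receptor, had 14 counts in the control and 1142 with TNF-α, a log2 ratio of 5.92 (95% interval 5.34 to 6.97). *Il18r1* and *Il18rap*, the chains of the IL-18 receptor, had ratios of 3.33 and 2.04. *Il1rap*, the co-receptor of the family, had 1164 and 3852 counts, a ratio of 1.47. The decoy receptor gene *Il1r2* was the lowest, with 20 and 8 counts and a ratio of -1.36.

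Of 20 genes of cytosolic sensors and their partners, 18 entered the comparison, 8 were more than 2-fold higher and 0 lower, beside 8.56% and 6.62% of all genes compared, and the median was 0.84. *Casp4*, the inflammatory caspase that binds LPS inside the cell, had 94 counts in the control and 573 with TNF-α, a log2 ratio of 2.33. *Gsdmd*, the pore-forming protein that this caspase cuts, had 61 and 425 counts, a ratio of 2.51. *Nod2*, a sensor of bacterial peptidoglycan, had 44 and 453 counts, a ratio of 3.05. The nucleic acid sensors *Zbp1*, *Dhx58* and *Ddx58* had ratios of 3.28, 1.94 and 1.12. *Tmem173*, which encodes the signalling adaptor STING, had a ratio of 1.32. The lowest of the list was *Naip6*, at -0.74 with 43 and 30 counts. The 6 endogenous ligands of TLR2 or TLR4 that were listed lay between -0.30 for *Bgn* and 0.26 for *Hmgb1*, with a median of -0.06.

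**Figure D4:**
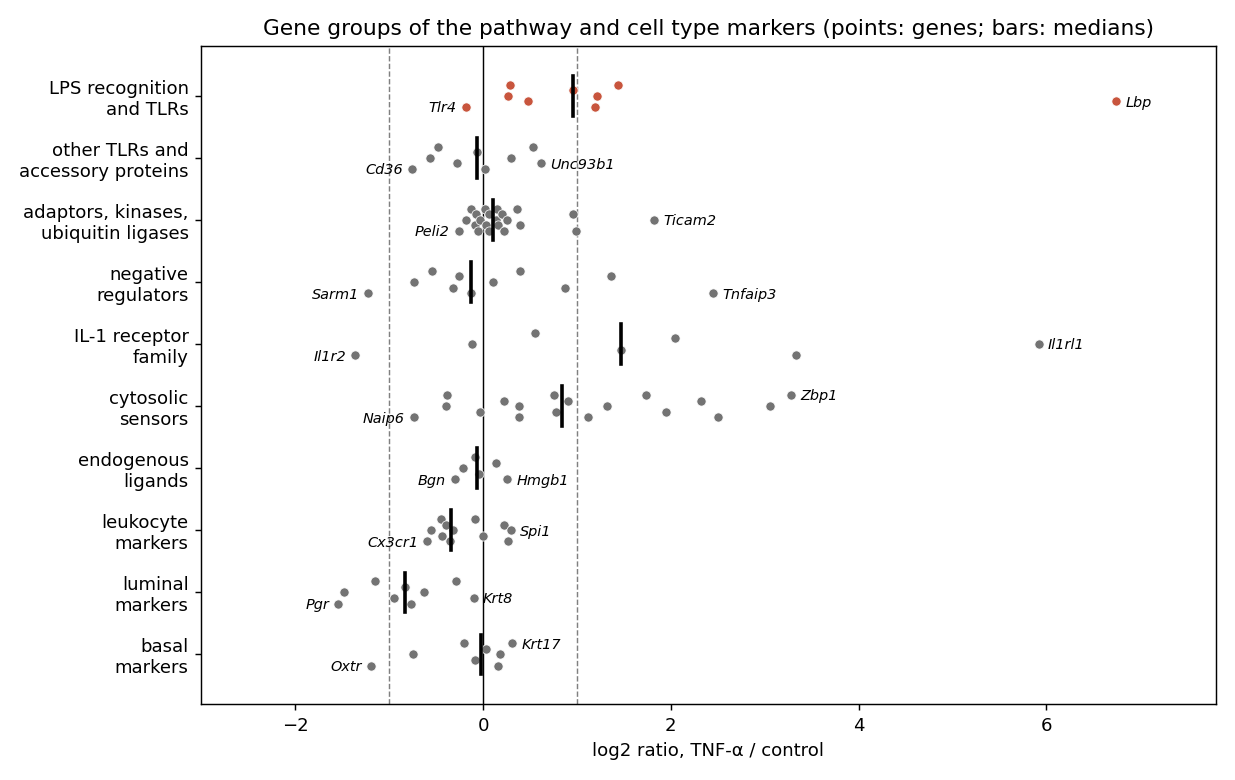
Log2 ratio of the TNF-α library to the control library for each compared gene of the pathway lists and of the leukocyte, luminal and basal marker lists, with a bar at the median of each list and dashed lines at 2-fold. The adaptors, kinases and ubiquitin ligases gather around a median of 0.10, while the IL-1 receptor family spreads from -1.36 to 5.92.

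Fibroblast, endothelial and adipocyte markers were read as further signs of other cells. The fibroblast markers summed to 499 CPM in the control and 486 CPM with TNF-α. The endothelial markers summed to 7.07 and 6.75 CPM, and the adipocyte markers to 4.71 and 2.74 CPM. The 6 fibroblast markers lay between -0.66 for *Col3a1* and 1.39 for *Dcn*. *Dcn* alone was more than 2-fold higher and 0 were lower, beside 8.56% and 6.62% of all genes compared. The endothelial markers with at least 10 counts lay between -0.30 for *Kdr* and 0.22 for *Cdh5*. Of the adipocyte markers, *Fabp4* alone reached 10 counts, with a ratio of -0.75. Of the 8 basal markers, *Oxtr* alone was more than 2-fold lower, at -1.19, and *Krt17* was the highest at 0.31. None was more than 2-fold higher, where 8.56% of all genes compared were higher and 6.62% lower. The part of these cell types in the values of the 10 genes was not tested.

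**Figure D5:**
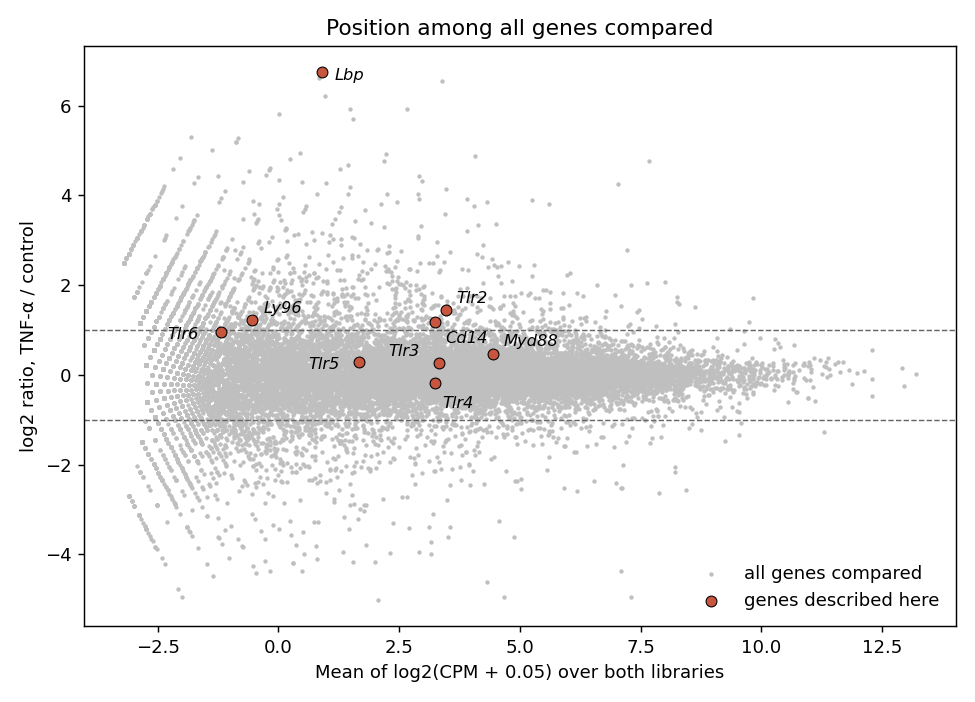
Log2 ratio of the TNF-α library to the control library against the mean level of each gene over both libraries, for the 20771 genes compared (grey) and the 9 genes described here (red). *Lbp* is the topmost point at 6.74, and *Tlr3*, *Tlr4* and *Tlr5* lie inside the dashed lines at 2-fold.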

How the data were processed

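The file the authors deposited holds raw read counts for 1 control and 1 TNF-α library, with the exon coordinates and summed exon length. The aligner, counting tool, strand setting and annotation are not given in the sources used here. The submitters' processing notes name GRCm38 and mm10, and 90.9% of the 47240 gene names shared with GENCODE M21 had the same coordinates. A count of 10 is worth 0.225 CPM in the control and 0.187 CPM with TNF-α. A count of 2 occurred in 2172 genes of the control library and a count of 1 in 618, which may reflect read ends counted singly; this was not tested.

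From the counts, TMM scaling (edgeR 4.0.16, R 4.3.3), CPM, RPKM and log2 ratios (prior count 2) were computed in Python 3.11.15 for genes with at least 10 counts over both libraries. With 1 library per group no test between conditions was possible and no p-value is given. Ratios have Clopper-Pearson intervals and levels exact Poisson intervals. A count of 0 was taken to allow 3 counts (one-sided). The genes, lists and thresholds were chosen with earlier results of these data known. Named genes were the 10 genes and, of each other list, the highest, the lowest and those past 2-fold with at least 50 counts. Others are marked or stand in a list count. The *Bpi*, *Adgre1*, *Cd3e*, *Ly6g*, *Lyz2*, *Csf1r*, *Cd68*, *Ikbke*, *Traf3*, *Krt14*, *Krt5* and neighbouring genes were named after their values were seen. Promoter windows (RefSeq, GRCm38.p6), over 250 bases before each start, were searched for the motif letters, some of which stand for several bases. Transcripts (GENCODE M21) were compared by exact matching of 50-base words. Coding sequences were aligned from end to end with Biopython 1.88. Alternatives were total counts, DESeq2 (1.42.0) size factors, upper quartile scaling, prior counts of 0.5 and 5, other filters, a fold of 1.5, counts divided by 2 and, chosen after seeing the data, a lowess correction on transcript GC content and length (span 0.3) and the leukocyte sum without *Lcp1*.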

Additional observations from a re-analysis of the deposited data

How the results depend on the processing

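No paired analysis was possible because there was a single library of each kind. Leaving out a replicate was likewise impossible. Of 282 values recomputed under 10 alternatives, 270 stayed in a set range and none changed sign outside it. The range was the counting interval for a gene's ratio and 1.5 times the main count for a count. For a list median it ran between the medians of the genes' lower and upper limits, which is not an interval of the median itself. Inside it, the median of the 9 genes fell to 0.47 and that of the negative regulators went from -0.13 to 0.11, both with at least 1 CPM in a library. The median of the other Toll-like receptors and accessory proteins went from -0.07 to 0.03 after the GC and length correction. The number of the 10 genes more than 2-fold higher, 4, lay between 3 and 5, and 0 were lower under each alternative. The correction for GC content used transcripts, because no genome of the build was used here.

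With at least 1 CPM in a library, 0 genes of the IL-1 receptor family and 0 negative regulators were lower, 0 adaptors were higher, and the median of the IL-1 receptor family was 1.75, as the genes with few counts drop out. With counts divided by 2, 0 adaptors were higher. With the ratio corrected for GC content and length, 3 adaptors were higher. Before this correction *Ikbke* and *Traf3* lay just under 2-fold, at log2 ratios of 0.99 and 0.96, and the cause of the change was not tested. With every gene above 3 counts in a library kept, 1 gene of the other Toll-like receptors and accessory proteins was higher. At a fold of 1.5, 3 adaptors were higher, 1 cytosolic sensor and 2 negative regulators were lower, and 1 gene of the other Toll-like receptors and accessory proteins was higher and 1 lower, because the threshold is lower.

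Depth limits *Tlr1*, *Tlr6*, *Ly96* and the control value of *Lbp*, each at 18 counts or fewer in the control library.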
